A study of Mus musculus with 6 samples.

Results

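The heat shock protein and chaperonin genes were read from the row names of the count table, as every symbol of the forms Hspa, Hspb, Hspd1, Hspe1, Hsph1, Hsp90, Dnaja, Dnajb, Dnajc, Cct with a number from 2 to 8, Tcp1, Hsf1 and Hsf2. The rule used no measured value and found 79 of 16982 genes, of which 73 had enough reads to be tested and 71 were also listed with an FPKM value (reads scaled by transcript length and by library size). The 79 genes comprised 10 of the HSP70 family, 3 of HSP110, 3 of HSP90, 6 small heat shock proteins, the 2 subunits of the mitochondrial chaperonin, 8 of TRiC, 2 heat shock factors, 42 J-domain genes and 3 others that carry a matching symbol. The 6 genes not tested were Hspb9, Cct6b, Dnajb7, Dnajb13, Dnajc6 and Dnajc22. None was above 0.902 CPM (counts scaled by library size times a TMM normalization factor) in any library. Hspa14, Hspb3, Cct6a and Dnajb8 have symbols of the same families and had no row in the table analysed here.

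Chaperones bind proteins that are unfolded or partly folded and keep them from aggregating. HSP70 proteins do so in cycles of ATP hydrolysis that J-domain proteins start and that HSP110 proteins reset by exchanging the nucleotide. HSP90 takes over later folding steps of many kinases and receptors, and small heat shock proteins hold unfolded clients without ATP. The ring-shaped chaperonins, HSP60 in mitochondria and TRiC in the cytosol, enclose whole chains, those of TRiC including actin and tubulin. HSF1 switches on many of these genes when proteins unfold in the cytosol, whereas ATF6 and XBP1 do so for the chaperones of the endoplasmic reticulum (ER).

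RNA was sequenced from 3 WT and 3 Rnf20-/- cultures of mouse reprogrammable cells on a C57BL/6 background, harvested at day 3 and labelled untreated. Per the methods of the study, they came from mouse embryonic fibroblasts (MEFs) that carried Rnf20 Flox/Flox and a ubiquitously expressed Tamoxifen-cre, were infected with retroviruses for OCT4, SOX2, KLF4 and c-MYC (OSKM), and lost Rnf20 when 4-OH tamoxifen was added. Whether the WT cultures also received 4-OH tamoxifen, and whether replicates were separate embryos, is not given in the sources used here, so p-values measure the spread between these cultures. RNF20 is the E3 ligase that attaches ubiquitin to histone H2B, a mark of transcribed genes.

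The labels were first checked on the targeted gene. Rnf20 stood at 107, 107 and 106 CPM in WT1, WT2 and WT3 and at 18.7, 18.5 and 16.4 CPM in KO1, KO2 and KO3, a log2 fold change of -2.57 ± 0.08 (SE, adjusted p = 0.000163). The 6 libraries held between 20545442 and 21746898 counts, of which between 1.41 and 1.61% fell on the 79 genes. KO3 stood apart from its group: a chi-square per gene between libraries was 92.4 and 101 for KO3 against KO1 and KO2, 8.57 for KO1 against KO2 and between 6.04 and 8.92 among the WT libraries. Transcripts of the Y chromosome were present in WT1, WT2, WT3 and KO2 and were at or near 0 in KO1 and KO3, so they were not balanced between the groups. Summed fibroblast markers (6 of 6 tested) ranged from 26303 to 28699 CPM in WT and from 17085 to 32350 CPM in the knockout, lowest in KO3, and 2 of them were called, Pdgfra at -1.22 and Thy1 at -1.11 on the log2 scale. Smooth muscle markers (4 of 4 tested) summed to between 667 and 759 CPM in WT against 1180 to 1808 CPM, and Acta2 alone was called, at 1.23 on the log2 scale. Macrophage markers (5 of 5 tested, none called) reached 83.0 CPM in KO3 against at most 31.2 CPM in the other 5 libraries, and epithelial markers (4 of 4 tested, none called) were at 3.14 CPM in KO3 against 23.3 to 42.9 CPM elsewhere. The endothelial list (2 of 4 tested) ranged over 48.3 to 59.0 CPM in WT and 32.3 to 66.9 CPM in the knockout, the neuronal list (2 of 3 tested) over 45.3 to 46.8 CPM and 16.8 to 34.4 CPM, and the muscle list (2 of 7 tested) over 7.65 to 10.01 CPM and 5.95 to 13.8 CPM, with Ttn and the neuronal gene Map2 called at 2.47 and -0.79, Myod1 at 0 in 5 libraries and Myog and Ckm at 0 in the WT. The part of these differences in the results on chaperones was not tested, and in bulk RNA fewer cells of a type and less RNA per cell cannot be told apart.

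Of the 73 tested genes 20 were higher and 7 lower in the knockout at an adjusted p under 0.05 (edgeR's quasi-likelihood test, Benjamini-Hochberg over all 13386 tested genes), and 46 were not called. These calls covered 37.0% of the members against 33% of all tested genes, of which 16.4% were higher and 16.6% lower. The 3 knockout libraries lay wholly above the 3 WT libraries for 29 members and wholly below for 16, where 54.8% of all genes did not overlap (26.6% above, 28.2% below), and they overlapped for the other 28. The median log2 fold change was 0.095 over the members and -0.00032 over all tested genes, and the members' median was 0.036 without KO1. Under the thresholds of the study (adjusted p under 0.01, more than 2-fold, mean FPKM above 1), 1 member was higher, Hspa1a, and 0 were lower, where 3.59% of all genes passed (1.5% higher, 2.08% lower). Hspa1a missed these stricter thresholds when WT1, WT2, WT3, KO1 or KO2 was left out. At an unadjusted p under 0.05 these counts were 27 higher and 12 lower, and DESeq2 called 35 members at an adjusted p under 0.05 (47.9%, against 38.1% of all genes). With scaling by library size alone the split at an adjusted p under 0.05 was 14 higher and 12 lower among the members and 1750 higher and 2684 lower among all genes.

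The calls depended on which libraries and terms entered. Without KO3 42 of 74 tested members were called (29 higher and 13 lower, 56.8% against 48.1% of all genes), and without WT1, WT2, WT3, KO1 or KO2 the calls numbered 11, 9, 9, 21 and 16. Those were 15.1, 12.2, 12.2, 28.8 and 21.6% of the tested members against 14.3, 11.9, 10.3, 27.7 and 24% of all genes, so without KO2 the members' share was below that of all genes. Of the 25 called members named by rule, 8 were called in each of the 6 fits without 1 library, namely Hspa1a, Hspa1b, Hspb1, Dnaja4, Dnajb11, Dnajc9, Dnajc18 and Dnajc27. Cct7, Dnajc15, Dnajc21, Hsp90aa1 and Hspa4 were called in 1 of those fits, without KO3. Hsf1, Dnajc1, Dnajc2 and Dnajc3 were called in 2 and Hspa12b, Hspa4l, Dnajb6 and Dnajc5 in 3, each losing the call without any 1 WT library. Hspb8 and Dnajb9 lost it without WT2 or WT3, Dnajc19 without WT1 or WT2, and Dnajb4 without WT3. With a term for Y-linked transcripts, which leaves the contrast resting on KO2 against the WT, 0 members were called, 13 higher and 6 lower at an unadjusted p under 0.05. Of all 13386 genes that fit called 0.814% (80 higher, 29 lower).

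**Figure D1:**
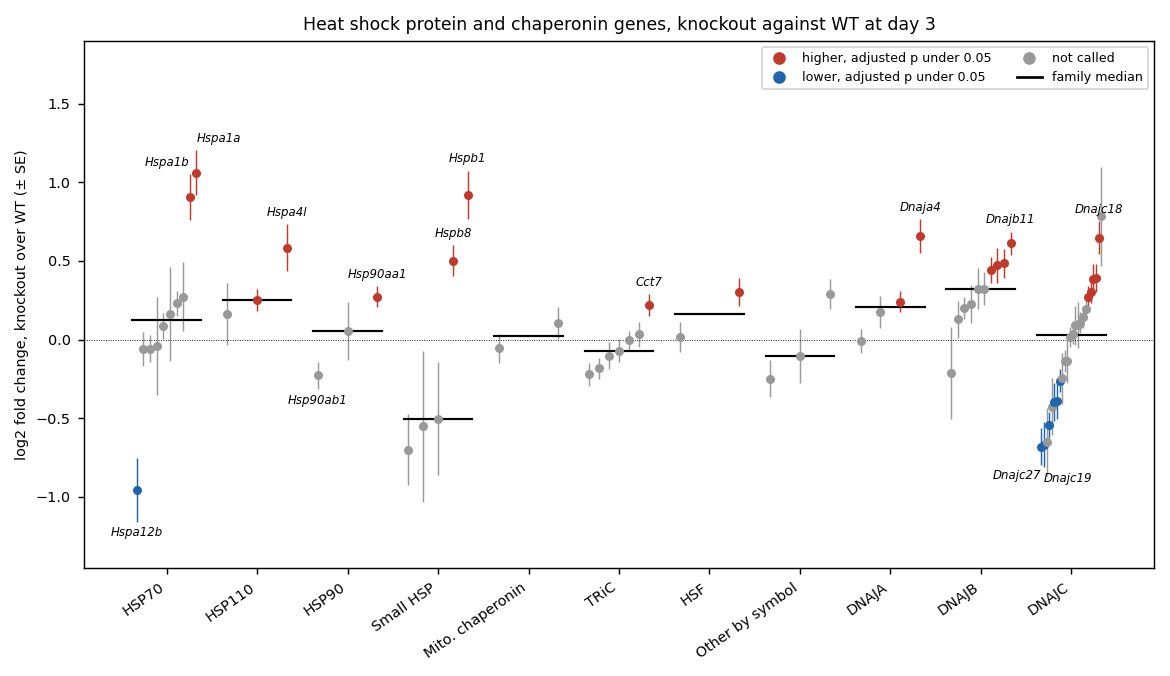
Each point is a tested gene, placed by family on the x axis, with its log2 fold change of knockout over WT on the y axis and bars of 1 SE; red and blue points were called higher and lower at an adjusted p under 0.05. Hspa1a, at 1.06, and Hspb1, at 0.92, are the highest points, Hspa12b, at -0.96, is the lowest, and the points of TRiC and of the mitochondrial chaperonin lie within 0.22 of 0.

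Among the HSP70 genes the stress-inducible pair Hspa1a and Hspa1b rose, Hspa12b fell and the 7 others were not called. Hspa1a and Hspa1b encode nearly the same cytosolic HSP70 from neighbouring genes of 1 exon each on chromosome 17 (GRCm38), at chr17:34969190-34972156 and chr17:34956436-34959238 on the minus strand, 9951 bases apart. Their open reading frames were 99.43% identical, so reads could be split between them and their calls may not be separate finds. Exons of Gm20481 lie over Hspa1a on the other strand. The bases just before the starts of Hspa1a and Hspa1b are shown because both were called higher, and of 250 bases 3 differ.
Hspa1a, chr17:34972157-34972406, minus strand: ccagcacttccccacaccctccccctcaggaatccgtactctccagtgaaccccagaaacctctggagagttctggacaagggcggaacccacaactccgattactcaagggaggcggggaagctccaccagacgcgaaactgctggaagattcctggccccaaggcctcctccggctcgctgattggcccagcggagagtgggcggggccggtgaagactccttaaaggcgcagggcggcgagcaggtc
Hspa1b, chr17:34959239-34959488, minus strand: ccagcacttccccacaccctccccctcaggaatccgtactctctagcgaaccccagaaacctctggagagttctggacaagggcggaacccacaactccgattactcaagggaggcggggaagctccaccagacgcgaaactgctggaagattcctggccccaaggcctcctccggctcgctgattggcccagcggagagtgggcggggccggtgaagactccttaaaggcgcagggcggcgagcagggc
The sequences are RefSeq's, on GRCm38.p6, read 5′ to 3′ up to the last base before the start. No exon of GENCODE M21 lies in either window, and neither holds the heat shock element as searched below, which says only that those letters are not in these 250 bases.

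Hspa1a stood at 3.99, 4.65 and 4.18 CPM in the WT libraries and at 9.45, 8.78 and 8.53 CPM in KO1, KO2 and KO3. All 3 knockout libraries lay above the WT range, with a log2 fold change of 1.06 ± 0.14 (adjusted p = 0.00491). Hspa1b stood at 14.3, 11.7 and 10.7 CPM in WT and 26.1, 21.03 and 21.7 CPM in the knockout, and the groups did not overlap (0.91 ± 0.15 on the log2 scale, adjusted p = 0.00758). Both were low in FPKM, the level per length: Hspa1a had a mean of 1.43 ± 0.126 FPKM in WT and 3.10 ± 0.186 FPKM in the knockout, and Hspa1b 4.42 ± 0.588 and 8.66 ± 0.991 FPKM (SD, n = 3). The constitutive cytosolic gene Hspa8, which serves folding in unstressed cells, was far above them at 1096 ± 40.5 FPKM in WT and 1166 ± 31.01 FPKM in the knockout. Hspa8 held 2588, 2634 and 2692 CPM in WT and 2881, 2832 and 2685 CPM in the knockout, where KO3 lay within the WT range (0.09 ± 0.08 on the log2 scale, adjusted p = 0.438).

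Hspa12b, a distant member of the family found in endothelial cells, moved the other way. Its levels were 37.1, 36.1 and 34.1 CPM in WT and 21.9, 20.7 and 12.6 CPM in the knockout, with KO3 lowest, and the log2 fold change was -0.96 ± 0.20 (adjusted p = 0.0156). The endothelial genes Pecam1 and Cdh5 were at most 0.525 CPM in every library. Pecam1, too low to be tested, was at most 0.0951 CPM in WT and ran from 0.475 to 0.525 CPM in the knockout. Kdr ran from 0.712 to 1.77 CPM, and Tek from 30.8 CPM in KO3 to 64.5 CPM in KO1. Hspa12a, the relative of Hspa12b, was at 8.32 to 9.78 CPM in WT and at 7.78, 7.26 and 15.5 CPM in the knockout. These lay on both sides of the WT values (0.16 ± 0.30, adjusted p = 0.698). Hspa2, known for its role in male germ cells, differed by -0.06 ± 0.08 on the log2 scale and Hspa1l, which lies 546 bases from Hspa1a on the other strand, by -0.04 ± 0.31, neither called. Mitochondrial Hspa9, which pulls imported chains into the matrix, differed by -0.06 ± 0.11 (adjusted p = 0.69).

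The ER member Hspa5, known as BiP, separated KO3 from the other knockout libraries. Hspa5 stood at 869, 855 and 923 CPM in WT, and at 1238, 1268 and 694 CPM in KO1, KO2 and KO3. KO1 and KO2 lay above all WT libraries and KO3 below all of them, and with 6 libraries the log2 fold change was 0.27 ± 0.22 (adjusted p = 0.369). Without KO3 it was 0.51 ± 0.06 (adjusted p = 5.96e-05). That fit, used for all values given without KO3, rests on KO1 and KO2 against the WT. It called 48.1% of all genes. Hspa13, an HSP70 of microsomes, stood at 67.8, 74.9 and 67.5 CPM in WT and 86.2, 83.2 and 77.3 CPM in the knockout, apart but not called (0.23 ± 0.08, adjusted p = 0.0643), and was 0.27 ± 0.07 without KO3 (adjusted p = 0.00668).

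**Figure D2:**
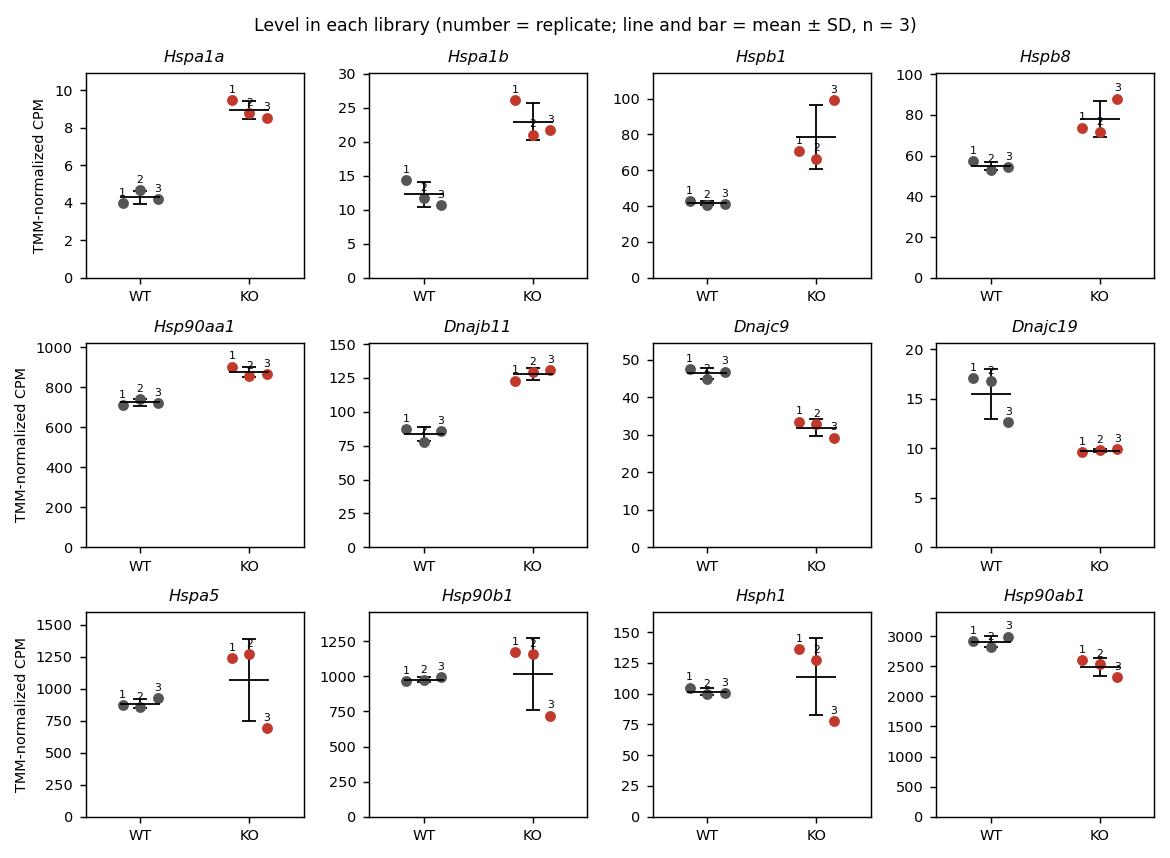
Each panel plots 1 gene, with TMM-normalized CPM on a y axis that starts at 0, a point per library numbered by replicate, and the mean ± SD of the 3 WT and 3 knockout libraries. In Hspa5, Hsp90b1 and Hsph1 the point of KO3 lies below the WT points, at 694, 720 and 77.9 CPM, while KO1 and KO2 lie above them.

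The HSP110 genes act as nucleotide exchange factors for HSP70, and 2 of 3 rose, where 16.4% of all tested genes were called higher. Hspa4 stood at 356, 382 and 358 CPM in WT and 446, 447 and 411 CPM in the knockout, without overlap (0.25 ± 0.07 on the log2 scale, adjusted p = 0.0377). Hspa4l was at 18.4, 16.5 and 15.8 CPM in WT and 22.9, 22.5 and 30.7 CPM in the knockout, highest in KO3 (0.59 ± 0.15, adjusted p = 0.0258). Hsph1, the stress-inducible member, gave 105, 99.6 and 100.2 CPM in WT and 136, 127 and 77.9 CPM in the knockout. It was not called with all libraries (0.16 ± 0.20, adjusted p = 0.552), and without KO3 it was called at 0.37 ± 0.06 (adjusted p = 0.000463).

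The 2 cytosolic HSP90 genes lay on opposite sides of 0, of which only the inducible one passed the test. Hsp90aa1, the inducible form, stood at 708, 741 and 722 CPM in WT and 903, 857 and 865 CPM in the knockout and rose by 0.27 ± 0.07 on the log2 scale (adjusted p = 0.0257). Hsp90ab1, the constitutive form, stood at 2920.0, 2809.8 and 2988 CPM in WT and 2595, 2536 and 2318 CPM in the knockout. Its groups did not overlap either, yet the difference of -0.23 ± 0.09 missed the threshold with 6 libraries (adjusted p = 0.0876) and was -0.18 ± 0.06 without KO3 (adjusted p = 0.033). Per length Hsp90ab1 was the higher of the pair in both groups, at 1074 ± 47.4 FPKM in WT and 928 ± 32.7 FPKM in the knockout against 224 ± 3.97 and 277 ± 9.32 FPKM for Hsp90aa1. Their open reading frames were 75.58% identical. Hsp90b1, the HSP90 of the ER, followed the pattern of Hspa5 with 963, 970.4 and 996 CPM in WT and 1171, 1156 and 720.2 CPM in the knockout, and its log2 fold change was 0.06 ± 0.18 with KO3 (adjusted p = 0.832) and 0.25 ± 0.05 without it (adjusted p = 0.00263).

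Of the small heat shock proteins 2 rose and the 3 others tested had values below 0 without passing. Among all tested genes 16.4% were called higher and 16.6% lower. Hspb1, known as HSP25 in the mouse and a partner of actin filaments, stood at 42.9, 40.7 and 41.1 CPM in WT and at 70.5, 66.4 and 98.97 CPM in the knockout. All knockout libraries lay above the WT range and KO3 was the highest (0.92 ± 0.16 on the log2 scale, adjusted p = 0.00834), and without KO3 the value was 0.72 ± 0.06 (adjusted p = 1.46e-05). Hspb8, which works with BAG3 in chaperone-assisted autophagy, was at 57.1, 53.1 and 54.4 CPM in WT and 73.7, 71.7 and 87.97 CPM in the knockout, again highest in KO3 (0.50 ± 0.10, adjusted p = 0.012). Acta2, a marker of smooth muscle, was also highest in KO3, with 451 to 516 CPM in WT and 951, 1111 and 1403 CPM in the knockout. Of the same list Cnn1 and Tagln were highest in KO3 too, at 29.3 and 370 CPM, and Myh11 was lowest there, at 5.86 CPM. None of these 3 was called, and the part of smooth muscle markers in the result was not tested. Hspb6, abundant in muscle, gave 16.02, 12.01 and 14.5 CPM in WT and 7.02, 7.45 and 11.7 CPM in the knockout (-0.70 ± 0.23, adjusted p = 0.0534), and was called at -0.97 ± 0.15 without KO3 (adjusted p = 0.000426). Hspb2 and Hspb7 were at most 3.13 CPM in any library and overlapped between groups.

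Of the 9 tested chaperonin genes 1 was called, against 33% of all tested genes. Of the mitochondrial HSP60 ring, Hspd1 stood at 509, 543 and 514 CPM in WT and 539, 525 and 442 CPM in the knockout (-0.06 ± 0.09 on the log2 scale, adjusted p = 0.674), and its lid subunit Hspe1 at 121, 142 and 120.4 CPM and 132, 129 and 152 CPM (0.10 ± 0.10, adjusted p = 0.459). KO3 was the lowest library for Hspd1 and the highest for Hspe1. These genes lie head to head on chromosome 1 where the 2 genes overlap by 112 bases on opposite strands, and the strand setting of the counting is not given in the sources used here. Of 7 tested TRiC genes 1 rose, Cct7, from 273, 285 and 297 CPM in WT to 341, 337 and 319 CPM in the knockout (0.22 ± 0.07, adjusted p = 0.0466); exons of Pradc1 lie over it on the other strand. Tcp1 and Cct5, subunits of the same rings, lay wholly below the WT without being called, at -0.18 ± 0.07 (adjusted p = 0.073) and -0.22 ± 0.07 (adjusted p = 0.0577). Cct2, Cct3, Cct4 and Cct8 overlapped between the groups, with log2 fold changes between -0.10 and 0.03. The TRiC median was -0.070 (-0.029 without KO3 and -0.11 without KO2), and per length the 7 genes ranged from 135 to 271 FPKM in WT. Without KO3, Cct7 was higher and 2 of the 7 were lower, in a fit that called 48.1% of all genes.

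Of the heat shock factors Hsf1, the main regulator of the cytosolic response, stood at 42.3, 40.2 and 45.98 CPM in WT and 49.3, 52.3 and 56.96 CPM in the knockout and rose by 0.30 ± 0.09 on the log2 scale (adjusted p = 0.0402). Hsf2, which binds the same element, gave 22.01, 22.8 and 22.2 CPM and 22.96, 24.5 and 20.4 CPM (0.02 ± 0.10, adjusted p = 0.897). A heat shock element was searched as the units GAA, TTC and GAA or TTC, GAA and TTC, each 2 bases of any kind apart, which covers both strands, in the 250 bases before the start of each gene with a RefSeq entry. It was found in 3 of 64 members (4.69%), Dnajb6, Hspd1 and Hspe1, against 0.514% of all genes and 0.457% of tested genes with an entry. The matches of Hspd1 and Hspe1 are the same bases read on opposite strands, so these 2 members share them and are not separate finds. Stretches of 30 bases are shown for Dnajb6 and Hspe1, because 1 rose and 1 did not, with the matched letters in capitals. Those of Hspe1 hold 2 overlapping matches, and both windows lie over annotated exons.
Dnajb6, chr5:29735844-29735873, plus strand: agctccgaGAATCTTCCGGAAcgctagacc
Hspe1, chr1:55088053-55088082, plus strand: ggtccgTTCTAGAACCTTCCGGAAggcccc

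The J-domain genes, which hand clients to HSP70 and start its ATP hydrolysis, were read by class. Of 4 tested DNAJA genes 2 rose and 0 fell, of 10 DNAJB genes 4 rose and 0 fell, and of 24 DNAJC genes 5 rose and 6 fell. Of all tested genes 16.4% were called higher and 16.6% lower. The class medians were 0.21, 0.32 and 0.027 on the log2 scale. The DNAJB median was 0.21 without KO3, and the DNAJC median ran from 0.0032 without KO1 to 0.039 without KO3 and was 0.016, 0.011 and 0.012 without WT2, WT3 and KO2, and it was -0.033 with scaling by library size alone. In the DNAJB class 7 of 10 genes lay wholly above the WT, and in the DNAJC class 9 of 24 lay wholly above and 10 wholly below, against 26.6% of all genes above and 28.2% below.

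Dnaja4, a cytosolic member, rose from 8.99, 8.40 and 8.59 CPM in WT to 14.7, 12.9 and 13.5 CPM in the knockout (0.66 ± 0.11 on the log2 scale, adjusted p = 0.00766). Dnajb4 stood at 33.7, 34.03 and 30.5 CPM in WT and 42.5, 44.1 and 46.8 CPM in the knockout (0.44 ± 0.08, adjusted p = 0.0108). Dnajb6, an inhibitor of polyglutamine aggregation, stood at 112, 114 and 108 CPM and 139, 144 and 181 CPM, with KO3 highest (0.47 ± 0.11, adjusted p = 0.0214). None of the 3 overlapped between groups, while Dnajb1, the usual heat-inducible partner of HSP70, was apart at 53.8, 49.2 and 53.3 CPM and 60.8, 59.4 and 59.3 CPM without being called (0.20 ± 0.07, adjusted p = 0.066). Dnajc2, which sits on the ribosome, rose by 0.27 ± 0.07 (adjusted p = 0.0263), and Dnajc5, a cysteine-string protein of secretory vesicles, by 0.39 ± 0.09 (adjusted p = 0.0227).

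Of the 14 members assigned to the ER 5 rose and 1 fell, 13 had a log2 fold change above 0, and the median was 0.25. Among all 13386 tested genes 6690 had a log2 fold change above 0, and 16.4% were called higher and 16.6% lower. Dnajb11, a co-chaperone of BiP, rose from 87.2, 77.9 and 85.5 CPM in WT to 123, 129.5 and 131 CPM in the knockout, and all 3 knockout libraries lay above the WT range (0.61 ± 0.07 on the log2 scale, adjusted p = 0.00374, the lowest among the members). Dnajc3, which binds BiP in the ER lumen, was at 119.7, 123 and 114 CPM in WT and 165, 164 and 138 CPM in the knockout (0.39 ± 0.09, adjusted p = 0.0193). Dnajb9, a target of XBP1, was at 24.7, 22.6 and 22.9 CPM and 29.8, 33.2 and 35.2 CPM (0.48 ± 0.09, adjusted p = 0.0122). These 3 partners of BiP lay above the WT in KO3 as well, where BiP itself did not. Dnajc18 rose by 0.65 ± 0.11 (adjusted p = 0.00762) and Dnajc1 by 0.30 ± 0.07 (adjusted p = 0.0229). The member that fell was Dnajc10, an ER reductase, at -0.26 ± 0.08 (adjusted p = 0.0388); it and Dnaja2, at 0.24 ± 0.07 (adjusted p = 0.0376), were the called J-domain genes outside the 15 with the largest changes. Without KO3 9 of the 14 ER members were higher and 1 lower, where 3230 of all 13529 genes were higher and 3280 lower.

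An ER stress element, searched on both strands as CCAAT and CCACG with 9 bases of any kind between them, or its reverse complement CGTGG and ATTGG, in the same windows, was found in 3 of 64 members (4.69%), Dnajc3, Hspa5 and Hsp90b1, against 0.13% of all genes and 0.149% of tested genes with an entry. Their stretches are shown because all 3 stood above the WT in KO1 and KO2 while in KO3 Dnajc3 lay above the WT and the other two below it. Capitals mark the matched letters; for Hspa5 30 bases and for Hsp90b1 the part outside annotated exons are given, the latter with 2 matches.
Dnajc3, chr14:118937682-118937931, plus strand: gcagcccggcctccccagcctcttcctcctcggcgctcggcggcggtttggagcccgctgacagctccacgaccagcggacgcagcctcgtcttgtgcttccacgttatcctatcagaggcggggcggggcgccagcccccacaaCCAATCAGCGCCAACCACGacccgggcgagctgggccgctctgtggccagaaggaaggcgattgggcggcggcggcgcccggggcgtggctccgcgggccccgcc
Hsp90b1, chr10:86705510-86705694, minus strand: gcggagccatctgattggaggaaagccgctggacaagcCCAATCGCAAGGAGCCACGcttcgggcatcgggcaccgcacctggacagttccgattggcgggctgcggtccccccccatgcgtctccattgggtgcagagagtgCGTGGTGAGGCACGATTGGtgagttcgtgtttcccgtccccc
Hspa5, chr2:34772020-34772049, plus strand: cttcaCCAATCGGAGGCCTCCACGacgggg
The match ends 87 bases before the start in Dnajc3 and 47 bases before it in Hspa5. The stretch shown for Hspa5 lies over an annotated exon, because GENCODE starts this gene further upstream than RefSeq. In Hsp90b1 the matches end 194 and 89 bases before the start. A match describes these letters and is no measured binding site.

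The J-domain genes that fell were of the DNAJC class. Dnajc9, a histone chaperone of dividing cells, stood at 47.4, 44.8 and 46.8 CPM in WT and 33.5, 32.9 and 29.2 CPM in the knockout (-0.54 ± 0.08 on the log2 scale, adjusted p = 0.00652). Dnajc27, a small GTPase with a J domain, stood at 12.03, 13.3 and 12.4 CPM and 7.21, 8.31 and 8.05 CPM (-0.68 ± 0.12, adjusted p = 0.00865). Dnajc19, of the mitochondrial import motor, gave 17.1, 16.8 and 12.6 CPM and 9.59, 9.78 and 9.91 CPM (-0.67 ± 0.14, adjusted p = 0.0158). WT3 was the WT library nearest to the knockout for Dnajc19, and exons of Fxr1 lie over it on the other strand. Dnajc15, its paralogue at the inner membrane, fell by 0.39 ± 0.12 (adjusted p = 0.044) and Dnajc21, which acts in ribosome assembly, by 0.40 ± 0.12 (adjusted p = 0.0441). Of 8 mitochondrial members these 2, Dnajc15 and Dnajc19, were the called ones, against 33% of all tested genes. The median of the 8 was -0.03. The 21 J-domain genes not called ranged from -0.65 to 0.78 on the log2 scale, and the genes at both ends were low in counts, Dnajc28 with at most 7.69 CPM in any library and Dnajc30 with at most 6.17 CPM. The 3 others by symbol, Hspb11, Hspbp1 and Hspbap1, were not called, at -0.10, -0.25 and 0.29.

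**Figure D3:**
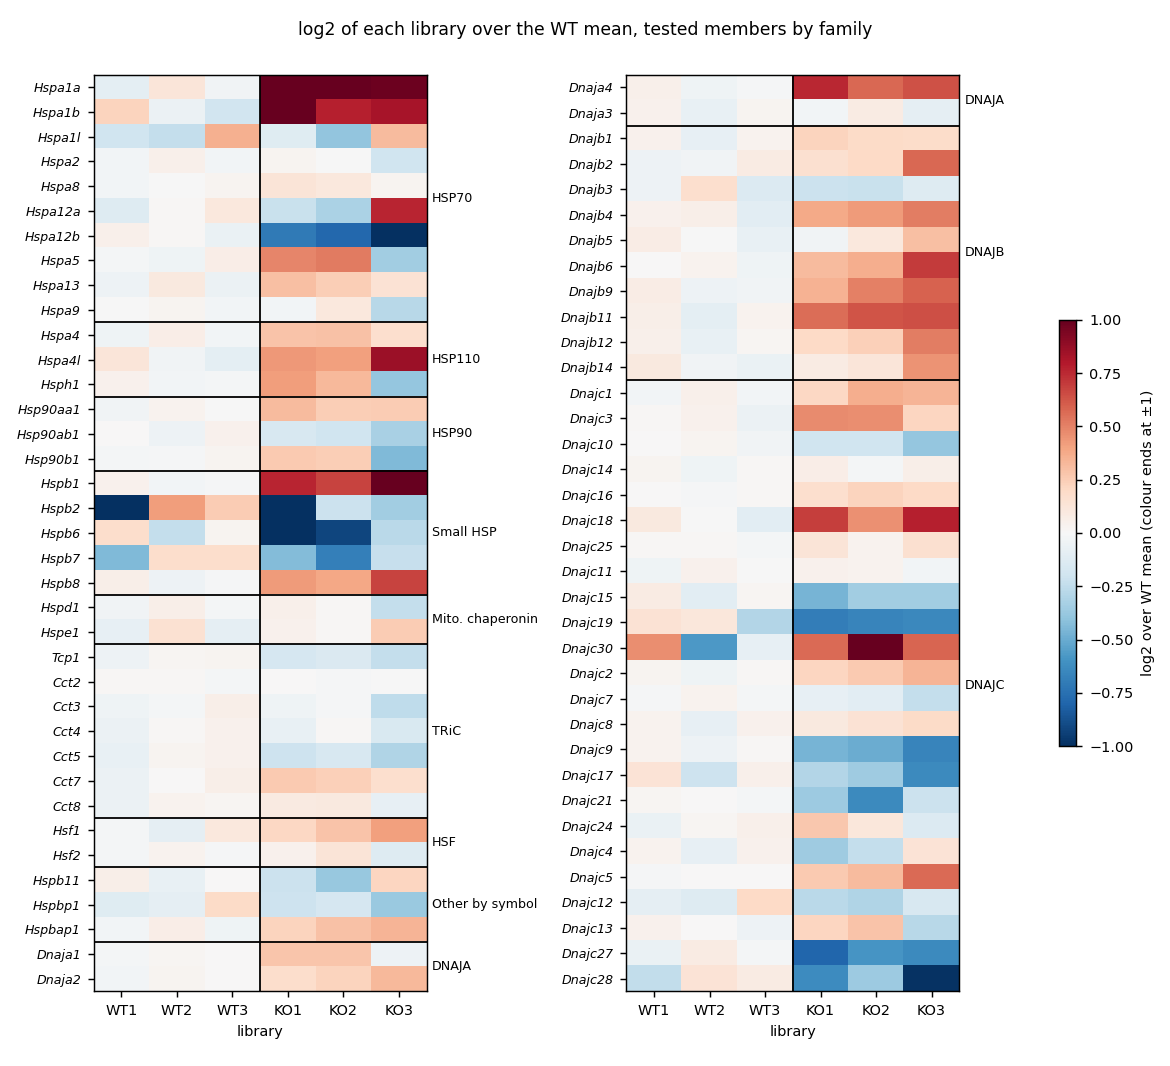
Rows are the 73 tested genes by family and columns the 6 libraries, and colour gives the log2 of each library over the WT mean, ending at ±1. The column of KO3 has the opposite colour to KO1 and KO2 in rows such as Hspa5, Hsp90b1, Hsph1, Hspa12a, Dnajc13 and Dnajc4. Hspa1a, Hspb1 and Dnajb11 are red in all 3 knockout columns.

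The partners of these chaperones were counted on 4 lists, to be read against the 16.4% of all tested genes that were called higher and the 16.6% called lower. Of 25 cytosolic co-chaperones and genes linked to HSF1, 12 rose and 3 fell, with a median of 0.20. Sqstm1, an autophagy receptor, rose from 266, 251 and 276 CPM to 384, 380.2 and 617 CPM (0.80 ± 0.19 on the log2 scale, adjusted p = 0.0229). Of the HSP90 immunophilins 2 fell and Ppid was not called. Fkbp4 stood at 240.3, 240.1 and 262 CPM in WT and 164, 151 and 115 CPM in the knockout (-0.79 ± 0.14, adjusted p = 0.00883), and Fkbp5 at 62.4, 63.98 and 59.3 CPM and 43.01, 40.98 and 22.1 CPM, lowest in KO3 (-0.81 ± 0.24, adjusted p = 0.04). Of the 8 prefoldin and TRiC cofactor genes 4 rose and 1 fell, with a median of 0.24. The changes were 0.49 ± 0.09 for Txndc9 (adjusted p = 0.0112) and 0.42 ± 0.08 for Pdcl3 (adjusted p = 0.00969), both phosducin-like modulators of TRiC, 0.37 ± 0.12 for the prefoldin subunit Pfdn4 (adjusted p = 0.0488) and 0.35 ± 0.11 for Pfdn1 (adjusted p = 0.0448), and Pdcl was lower at -0.33 ± 0.07 (adjusted p = 0.0191).

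Of 19 genes of ER folding and the unfolded protein response 7 rose and 0 fell, with a median of 0.28. Ero1l, an oxidase that supplies disulfide bonds, rose from 89.9, 82.9 and 80.1 CPM in WT to 174, 151 and 267 CPM in the knockout (1.23 ± 0.21 on the log2 scale, adjusted p = 0.00853) and Ddit3, the stress factor CHOP, from 18.6, 14.4 and 19.3 CPM to 29.9, 36.8 and 39.6 CPM (1.02 ± 0.16, adjusted p = 0.00652). The lectin chaperone Canx rose from 665, 662 and 656 CPM to 1037, 1058 and 974 CPM (0.63 ± 0.07, adjusted p = 0.00349) and its partner Pdia3 by 0.58 ± 0.07 (adjusted p = 0.0039). KO3 lay above every WT library for these 4 genes, unlike for Hspa5 and Hsp90b1. Xbp1 and Atf6, the regulators, were not called, at -0.08 ± 0.09 (adjusted p = 0.511) and 0.13 ± 0.07 (adjusted p = 0.193). Of 12 mitochondrial folding and protease partners 1 rose, Grpel1, the exchange factor of Hspa9 (0.28 ± 0.09, adjusted p = 0.0498), and 1 fell, Timm44, its anchor at the import channel (-0.25 ± 0.08, adjusted p = 0.0483). Their median was 0.03, and it took either sign when 1 library was left out, from -0.011 without KO1 to 0.045 without WT3.

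**Figure D4:**
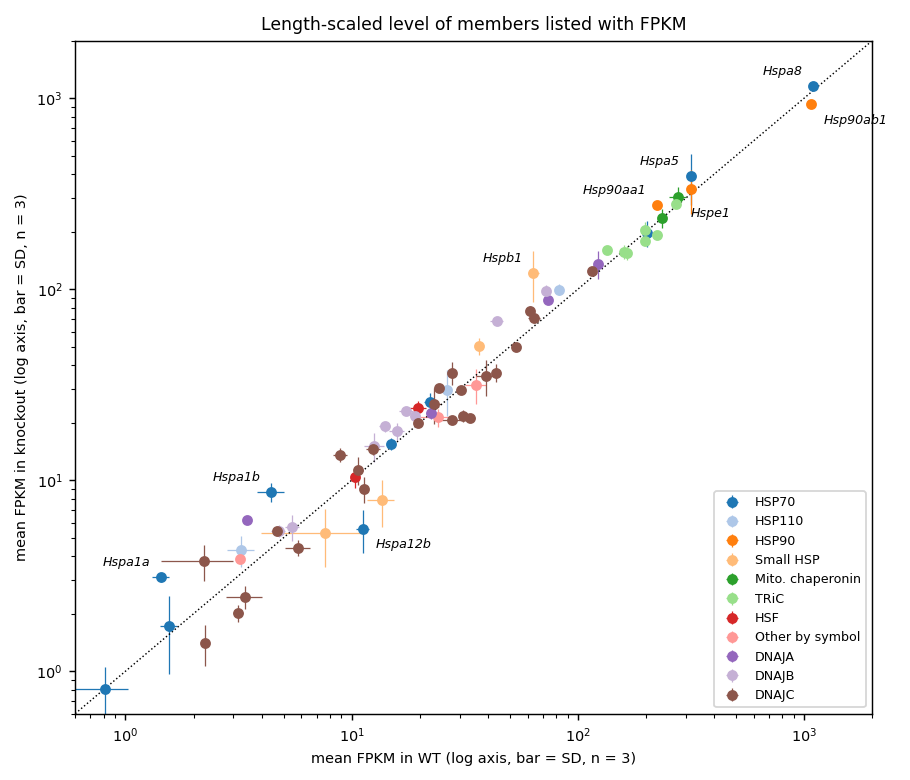
Each point is 1 of the 71 genes with an FPKM value, with its mean in WT on the x axis and in the knockout on the y axis, both on log scales, and bars of 1 SD over 3 libraries; the dotted line marks equal levels. Hspa8 and Hsp90ab1 lie at the top near the line, whereas Hspa1a, Hspa1b and Hspb1 lie above it and Hspa12b below it.

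Across the whole set the sum of the 79 genes ranged from 14958 to 15310 CPM in WT and from 14366 to 16227 CPM in the knockout. KO1 and KO2 lay above all WT libraries and KO3 below all of them. The summed HSP70 genes showed the same order, at 4903.9 and 4924.3 CPM in KO1 and KO2 and 4049.6 CPM in KO3. In WT they summed to 4229.0 to 4372.3 CPM. Such sums are set mostly by the most abundant genes. The HSP90, TRiC and mitochondrial chaperonin sums also lay below every WT library in KO3. The HSP110, small HSP, HSF and J-domain sums in KO3 lay above every WT library. They were 519.81, 201.18, 77.4 and 2689.7 CPM, against at most 498.3, 117.86, 68.1 and 2391 CPM in WT. Exons of another gene lay over 9 members on the same strand and over 27 on the opposite strand, and reads of such pairs may be shared.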

How the data were processed

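RNA of 3 WT and 3 Rnf20-/- cultures was sequenced from stranded mRNA libraries. Per the labels, the authors used HISAT2 (2.1.0) and Cufflinks (2.1.1) with GRCm38 (mm10). The program and strand setting of the counting are not given in the sources used here. The deposited counts are whole reads per gene; the FPKM values were deposited by the authors for 12633 genes and are used for levels per length. Columns of fold changes and adjusted p-values by the authors were not used, nor were 6 columns that repeat the counts. Rows named only as new genes of the authors' processing numbered 425, held 0.841% of counts and were kept.

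Counts were tested with edgeR (4.0.16) in R (4.3.3): filterByExpr, TMM scaling, a quasi-likelihood fit of genotype over the 6 libraries, and Benjamini-Hochberg adjustment over 13386 genes, with calls at an adjusted p under 0.05. CPM are TMM-normalized. SE was taken from the log2 fold change and the F statistic. The deviations of same-numbered WT and knockout libraries from their group means correlated at -0.066, 0.037 and 0.011, so the numbers were not taken to pair samples. The steps were tested on simulated data. Alternatives were RLE and unscaled library sizes, DESeq2 (1.42.0), other count filters, a replicate block, each library left out, a stricter threshold, and, chosen after seeing the data, a term for Y-linked transcripts.

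Members, families, partner lists and marker lists were chosen with earlier results of these data known. The text names every tested member of the HSP70, HSP110, HSP90, small HSP, chaperonin, TRiC and HSF families; of J-domain and other members up to 15 that were called with groups that did not overlap, by size of change; and up to 4 called genes per partner list, of which 1 is not reported here. Exceptions, chosen after their values were seen, are Dnaja2, Dnajc10, Dnajb1, Dnajc28, Dnajc30, the 3 others by symbol, the genes without a test, and Pdcl, Ppid, Xbp1 and Atf6 on the partner lists. Positions are from GENCODE M21 (GRCm38), where all 79 members matched. Promoter sequences are RefSeq's (GRCm38.p6), given for 64 members. Counts per library between 20545442 and 21746898 limit the precision of low genes, and 3 counts correspond to 0.142 to 0.143 CPM.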

Additional observations from a re-analysis of the deposited data

How the results depend on the processing

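The term for Y-linked transcripts lost all 27 calls, the most of any setting, and leaving out 1 library lost 0 to 18. Leaving out 1 library at a time gave 6 to 29 members higher and 2 to 13 lower, and 0 to 1 by the study's thresholds, which Hspa1a passed with all 6 libraries. Without any 1 WT library 11, 9 and 9 of the 27 calls were left, and without KO1, KO2 and KO3 20, 16 and 27; the last gained 15. The replicate numbers did not pair the samples, and the replicate block gave 11 members higher, 4 lower and 0 by the study's thresholds. At an adjusted p under 0.05 the block called 20.5% of the members against 21.5% of all genes. The term for Y-linked transcripts gave 0 higher, 0 lower and 0 by the study's thresholds, an adjusted p under 0.01 gave 6 and 2, DESeq2 gave 12 lower and library size alone 12 lower.

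With library size alone, which moved the median of all genes to -0.060, the medians were 0.064 for HSP70, -0.0357 for the mitochondrial chaperonin, 0.10 for HSF, 0.15 for DNAJA, 0.14 for cytosolic co-chaperones, -0.0295 for mitochondrial partners and 0.035 for all members. The block gave 0.084 for HSP70. The Y term gave 0.10 for HSP70, -0.22 for small HSP, 0.21 for HSF and 0.014 for mitochondrial partners.

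Leaving out 1 library at a time, medians ran from 0.078 to 0.19 for HSP70, 0.23 to 0.37 for HSP110, -0.054 to 0.25 for HSP90, -0.64 to -0.28 for small HSP, -0.0055 to 0.077 for the mitochondrial chaperonin, -0.11 to -0.029 for TRiC, 0.14 to 0.18 for HSF, -0.19 to 0.023 for the 3 others by symbol, 0.19 to 0.24 for DNAJA, 0.21 to 0.40 for DNAJB, 0.0032 to 0.039 for DNAJC, 0.18 to 0.24 for cytosolic co-chaperones, 0.16 to 0.27 for prefoldin and TRiC cofactors, 0.25 to 0.30 for ER folding, -0.011 to 0.045 for mitochondrial partners and 0.036 to 0.10 for all members. Depth limits Hspb2, Hspb7, Hspa1l and Dnajc30, which had few counts. Some called genes were low as well. Hspa1a had 84 to 98 counts in WT and 179 to 198 in the knockout. Dnajc15 had 160 to 235 and Dnajc27 151 to 281 over the 6 libraries.

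Of the named genes, 20 of 806 values under other settings changed sign, none of a gene called in the reported fit. Cct2 was 0.0036 with RLE and with DESeq2, Hsp90b1 -0.0034, Cct8 -0.026 and Hsf2 -0.043 with library size alone, and Hspa12a -0.32, Hspa9 0.10, Hspd1 0.0092 and Cct4 0.011 with the Y term. Leaving out 1 library at a time also turned Hspa1l (from -0.26 to 0.19 over the 6 fits), Hspa2 (-0.094 to 0.012), Hspa12a (-0.27 to 0.36), Hspa9 (-0.14 to 0.040), Hsp90b1 (-0.054 to 0.25), Hspd1 (-0.10 to 0.030), Cct2 (-0.018 to 0.0029) and Hsf2 (-0.038 to 0.088). The cause was not tested. Of the other values 610 kept direction and side of the threshold, 159 kept direction and lost the call, and 17 gained it.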
